A study of Mus musculus with 16 samples.

Results

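The breakdown of the branched-chain amino acids (leucine, isoleucine and valine) was described through 10 genes, taken by name from the textbook pathway: Bcat2, Bckdha, Bckdhb, Dbt, Bckdk, Ivd, Mccc1, Mccc2, Hibadh and Hibch. Every probe whose annotation carried 1 of these symbols was used. There were 12 such probes for 9 of the 10 genes, out of 16593 genes named on the array, and Mccc2 had no named probe. The comparison was between quadriceps femoris muscles of 8 ATF4 mKO mice and 8 control mice from the same litters. All 16 were males of 22 months. Both groups carried 2 floxed copies of Atf4, the gene of the stress-responsive transcription factor ATF4. ATF4 mKO mice also carried the MCK-Cre transgene, in which the muscle creatine kinase promoter drives the Cre recombinase that excises the floxed alleles in skeletal muscle fibers and heart. Control mice lacked it, so the presence of Cre and the loss of ATF4 cannot be told apart, and other cell types of the muscle kept their Atf4. Each mouse gave 1 bead array, and the values are log2 signals.

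Skeletal muscle is a main site of the first step of branched-chain amino acid breakdown. The mitochondrial transaminase, encoded by Bcat2, moves the amino group to 2-oxoglutarate and leaves a branched-chain keto acid. The branched-chain keto acid dehydrogenase complex then removes carbon dioxide from the keto acid, irreversibly, and passes the acyl group to coenzyme A. Its E1 component is built of an alpha subunit (Bckdha) and a beta subunit (Bckdhb), its E2 core is encoded by Dbt, and its E3 subunit (Dld) is shared with related complexes. The kinase Bckdk phosphorylates the E1 alpha subunit and turns the complex off, and the phosphatase Ppm1k turns it on again. Beyond the complex, Ivd, Mccc1 and Mccc2 serve leucine, whereas Hibch and Hibadh serve valine.

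Atf4 was read first, as a check of the genotypes. Its log2 signal was 8.52 ± 0.05 in ATF4 mKO mice and 10.45 ± 0.12 in control mice (SD, n = 8 each). It thus fell by 1.93 ± 0.04 (S.E.; limma, adjusted p = 1.26e-13), and the groups did not overlap. The place of this probe relative to the floxed part of Atf4 was not checked. Over all 25697 probes, 35 passed an adjusted p of 0.1 in limma, 25 lower and 10 higher in ATF4 mKO mice. Signals had a floor: the minimum of an array lay between 8.25 and 8.28, and 65.7% of probes had a mean below 8.5, which is called the floor here because changes of such probes are compressed. The muscle fiber markers Acta1, Ckm, Mylpf, Tnnt3 and Myh4 were bright, with a mean per mouse of 14.84 to 14.98 in ATF4 mKO mice and 14.81 to 14.98 in control mice. Of the 10 genes, 8 had a probe above the floor, and Hibch had not. Precision is limited throughout by the number of arrays.

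Stretches of promoter sequence are shown for the gene of the enzyme complex's E1 alpha subunit and for its kinase, beside that of Aars, an alanyl-tRNA synthetase gene that was lower in ATF4 mKO mice and whose promoter holds a C/EBP-ATF response element, the composite site that ATF4 binds with a C/EBP partner. The Aars signal was 10.44 ± 0.06 in ATF4 mKO mice and 11.37 ± 0.07 in control mice (SD, n = 8 each; change -0.93 ± 0.03, S.E.; limma, adjusted p = 1.49e-11). The letters searched were TGATGNAAT on both strands, 8 fixed letters and 1 free. All sequences are from RefSeq, build GRCm38.p6, written 5′ to 3′ along the gene. Those of Bckdha and Bckdk are the 250 bases before the annotated start, and that of Aars runs from base -150 to base -51. Capitals mark a stretch closest to the element. It is complete in Aars (8 of 8 letters, on the opposite strand) and has 6 of 8 letters in Bckdha and in Bckdk. Where several stretches were equally close, as in Bckdk, only 1 is marked.
Aars (chr8:111033692-111033791, plus strand): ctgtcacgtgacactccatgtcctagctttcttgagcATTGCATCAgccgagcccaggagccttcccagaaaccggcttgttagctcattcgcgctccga
Bckdha (chr7:25658762-25659011, minus strand): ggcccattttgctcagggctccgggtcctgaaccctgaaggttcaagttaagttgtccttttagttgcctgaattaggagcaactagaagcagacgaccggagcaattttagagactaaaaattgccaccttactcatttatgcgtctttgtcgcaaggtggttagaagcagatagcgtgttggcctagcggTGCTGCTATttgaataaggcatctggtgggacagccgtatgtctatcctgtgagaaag
Bckdk (chr7:127903823-127904072, plus strand): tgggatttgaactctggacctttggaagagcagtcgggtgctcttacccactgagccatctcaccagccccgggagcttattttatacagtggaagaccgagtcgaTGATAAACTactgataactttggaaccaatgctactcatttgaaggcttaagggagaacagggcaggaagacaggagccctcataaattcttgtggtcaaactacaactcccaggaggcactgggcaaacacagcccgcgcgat

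The element was searched in windows from 250 bases before to 50 bases after each annotated start. RefSeq windows were found for 9 of the 10 genes (11 windows, as Bcat2 and Bckdhb have 2 starts each), and none for Dbt. None of the 11 windows held all 8 letters, and 0 of 11 held 7 or more. The closest stretch had 6 letters in 9 windows, Mccc2 and Hibch among them. Of the 32851 windows of all genes, 0.965% held the whole element, 18.2% held 7 letters or more and 77.7% held 6 or more. For comparison, 19 named genes were lower in ATF4 mKO mice, 16 of these had a window, and 3 (Aars, Gars and Iars) held the whole element. The cyclic AMP response element TGACGTCA and the estrogen-related receptor element TCAAGGTCA, each also searched on both strands, were in 0 of the 11 windows, against 1.79% and 0.423% of all windows. A match or its absence describes these windows and was not set against binding of any factor.

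None of the breakdown genes passed the test. The test (limma, threshold 0.1 after adjustment) called 0 of the 12 in ATF4 mKO mice, beside 0.136% of all probes, and the lowest adjusted p among them was 0.876. With a background this low the count of calls among 12 probes says little, and the sizes and intervals of the changes are given for this reason. At an unadjusted p below 0.05, 1 of 12 probes passed (Mccc1), beside 5.62% of all probes, and the methods' t-test (unpaired and two-tailed, which the study names for other arrays of its own), at the unadjusted p of 0.025 that it sets for these, called 0 of 12, beside 2.85%. The groups overlapped at all 12 probes, whereas they did not overlap at 0.101% of all probes. Over the 8 genes above the floor the median change was 0.02, with 4 changes above 0 and 4 below it, and over all named genes with a probe above the floor it was 0.00.

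**Figure D1:**
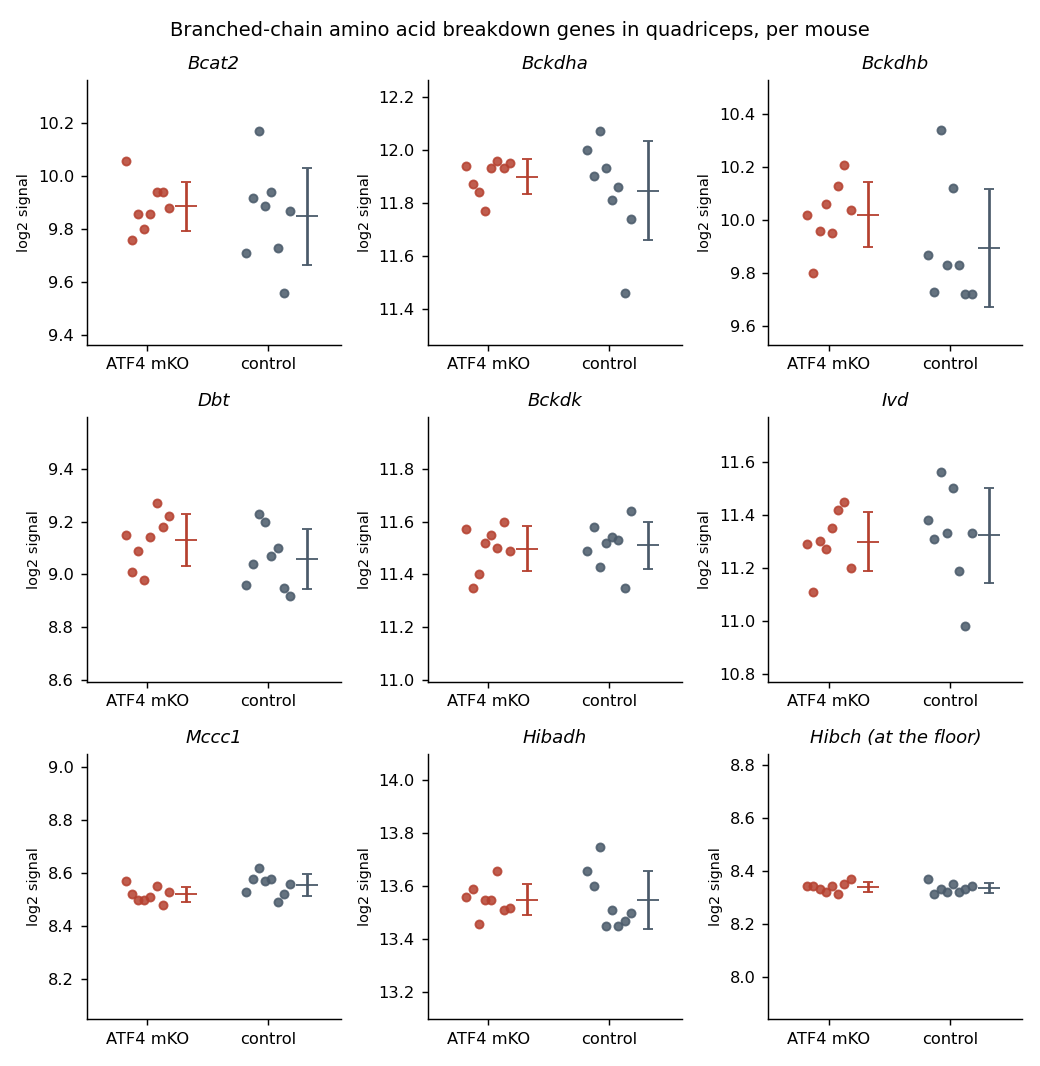
Log2 signal of the brightest probe of each of the 9 measured genes in single mice, ATF4 mKO (red, n = 8) on the left and control (grey, n = 8) on the right of each panel, with the mean and SD beside the points. Every panel spans the same height on the log2 axis, and the groups overlap in each of the 9 panels.

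Bcat2, the gene of the transaminase that opens the pathway, had log2 signals of 9.76 at the lowest, 9.87 at the median and 10.06 at the highest in ATF4 mKO mice, against 9.56, 9.88 and 10.17 in control mice. The ATF4 mKO values lay inside the range of the controls. Bcat2 averaged 9.89 ± 0.09 in ATF4 mKO mice and 9.85 ± 0.18 in control mice (SD, n = 8 each), and the change of 0.04 ± 0.07 (S.E.) had a 95% interval from -0.10 to 0.19 (limma, adjusted p = 0.981). As a ratio of signals this interval runs from -6.99% to 14.0%.

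The E1 and E2 genes of the dehydrogenase complex had changes above 0 that did not pass. Bckdha, the subunit that the kinase phosphorylates, had signals of 11.77, 11.93 and 11.96 (lowest, median and highest) in ATF4 mKO mice, against 11.46, 11.88 and 12.07 in control mice. Its change was 0.05 ± 0.07 (S.E.; 95% interval -0.09 to 0.19; limma, adjusted p = 0.967). The ATF4 mKO mice spanned 0.19 and the controls 0.61, so that the groups differed more in their range than in their center. Bckdhb, the partner subunit of E1, had 9.80, 10.03 and 10.21 in ATF4 mKO mice, against 9.72, 9.83 and 10.34 in control mice. It had the largest change of the 12 probes, 0.13 ± 0.08 (S.E.; 95% interval -0.05 to 0.31; limma, adjusted p = 0.912). Of 8 ATF4 mKO mice, 7 lay above the control mean, yet the highest Bckdhb signal of all was in a control mouse. Dbt, the E2 core that carries the acyl group to coenzyme A, had 8.98, 9.15 and 9.27 in ATF4 mKO mice, against 8.92, 9.06 and 9.23 in control mice. The change of Dbt was 0.07 ± 0.05 (S.E.; 95% interval -0.04 to 0.18; limma, adjusted p = 0.924). Its other 2 probes lay at the floor, with means over the 16 arrays of 8.39 and 8.34 and a change of 0.01 each. A fall of the mRNA could not have shown there, and a small rise would be compressed.

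Bckdk, the kinase that holds the complex in its inactive form, was measured by 2 probes above the floor, and neither passed. The brighter probe gave 11.35, 11.51 and 11.60 (lowest, median and highest) in ATF4 mKO mice, against 11.35, 11.52 and 11.64 in control mice. The minimum was the same in both genotypes and the change was -0.01 ± 0.04 (S.E.; 95% interval -0.10 to 0.08; limma, adjusted p = 0.996). The second probe gave 10.92, 11.02 and 11.26 in ATF4 mKO mice, against 10.71, 11.14 and 11.23 in control mice, with a change of -0.04 (95% interval -0.18 to 0.11; limma, adjusted p = 0.986). Both probes gave a change below 0, each within its error. The difference between kinase and substrate was also taken within each mouse, as the log2 signal of Bckdk minus that of Bckdha. It was -0.40 ± 0.08 in ATF4 mKO mice and -0.34 ± 0.19 in control mice (SD, n = 8 each), and the genotypes differed by -0.07 (two-sided exact permutation test over 12870 arrangements, p = 0.384). Its size reflects the 2 probes as well as the mRNAs and is not a ratio of transcripts. Phosphorylation and activity of the complex were not measured.

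In the leucine branch, Ivd encodes isovaleryl-CoA dehydrogenase, the mitochondrial enzyme that follows the complex. Ivd had 11.11, 11.30 and 11.45 (lowest, median and highest) in ATF4 mKO mice, against 10.98, 11.33 and 11.56 in control mice. Its change was -0.03 ± 0.07 (S.E.; 95% interval -0.17 to 0.12; limma, adjusted p = 0.989), and again the ATF4 mKO values lay inside the control range. Mccc1 and Mccc2 encode the subunits of the biotin-dependent 3-methylcrotonyl-CoA carboxylase, the next step. Mccc1 lay just above the floor, with 8.48, 8.52 and 8.57 in ATF4 mKO mice, against 8.49, 8.56 and 8.62 in control mice. It had the smallest unadjusted p of the 12 probes, 0.0408 by limma, with an adjusted p of 0.876, and its change was -0.04 ± 0.02 (S.E.), with 7 of 8 ATF4 mKO mice below the control mean. As a ratio of signals its interval runs from -4.96% to -0.123%, and a probe so near the floor would understate any change of the mRNA.

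In the valine branch, Hibadh, the dehydrogenase that oxidizes 3-hydroxyisobutyrate, had 13.46, 13.55 and 13.66 (lowest, median and highest) in ATF4 mKO mice, against 13.45, 13.51 and 13.75 in control mice. The means were 13.55 ± 0.06 in ATF4 mKO mice and 13.55 ± 0.11 in control mice (SD, n = 8 each). Its 95% interval ran from -0.09 to 0.09 (limma, adjusted p = 1.0), among the tighter intervals of the genes above the floor. Hibch, the hydrolase that frees 3-hydroxyisobutyrate from coenzyme A, was at the floor in both groups, with a mean of 8.34 in ATF4 mKO mice and 8.33 in control mice, and gives no reading of its mRNA.

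**Figure D2:**
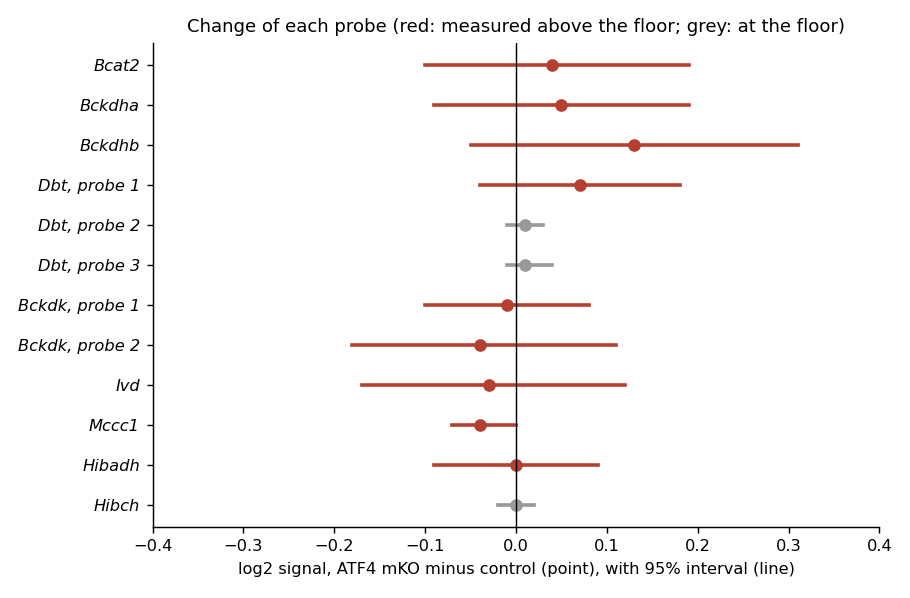
Change in log2 signal (ATF4 mKO minus control, n = 8 each) of each of the 12 probes, as a point with its 95% interval from limma, red for the 9 probes above the floor and grey for the 3 at the floor. The intervals of the brightest probes above the floor reach from -0.17 (Ivd) to 0.31 (Bckdhb), and grey intervals are narrow because signals at the floor hardly vary.

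The intervals bound what these arrays could have missed. For the brightest probes of the 8 genes above the floor, the lower end of the interval was no lower than -0.17, and 19 of the 25 falls called over the whole array were larger than that. A fall as small as the smallest of those 25, -0.08, lay outside the interval of 3 of the 8 genes and inside that of the other 5. The upper ends reached 0.31, above the largest rise called on the array (0.26), for 1 gene, Bckdhb. These bounds hold for signals. Near the floor any change of an mRNA would appear smaller than it is, by an amount that was not measured. Mccc1 and Dbt were the dimmest of the 8 genes. In whole muscle, fewer cells of a type and less RNA per cell cannot be told apart, and markers of other cells were read for this reason. None of the adipocyte, endothelial, fibroblast or macrophage markers measured (16 genes) passed. Only 3 of 6 adipocyte, 3 of 4 endothelial, 3 of 4 fibroblast and 1 of 2 macrophage genes were above the floor. Those at the floor could hardly show a fall, and a small rise would be compressed. The mean level of the adipocyte markers, those at the floor included, ran from 8.80 to 9.19 in ATF4 mKO mice and from 8.69 to 9.35 in control mice. Markers of slow fibers, which are rich in mitochondria, had changes below 0 at 7 of 7 genes, from -0.35 to -0.07, with 0 of 7 passing (level per mouse 10.70 to 12.02 in ATF4 mKO mice and 11.19 to 12.02 in control mice). The part of fiber type in the values of the breakdown genes was not tested.

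Other genes of the pathway were read from a list. It held 17 further measured enzymes and cofactor genes of branched-chain amino acid breakdown, 13 of them above the floor, and 0 of 17 passed in either direction. Their median change was -0.000646, beside 0.000468 over all named genes. The smallest p values belonged to Pccb and Pcca, the subunits of the propionyl-CoA carboxylase that receives carbon from valine and isoleucine, to Oxct1, which activates ketone bodies, and to Dld. The change of Oxct1 was 0.14 (95% interval -0.02 to 0.30) and that of Pccb 0.07 (-0.01 to 0.14), with 8 of 8 ATF4 mKO mice above the control mean for each and an adjusted p of 0.894 for each by limma. The groups overlapped for both genes. Pcca changed by 0.06 and Dld by -0.06, both at an adjusted p of 0.924. The phosphatase Ppm1k, which opposes the kinase, gave 10.03 ± 0.13 in ATF4 mKO mice and 10.11 ± 0.17 in control mice (SD, n = 8 each; change -0.08, 95% interval -0.23 to 0.08; limma, adjusted p = 0.951). It is named outside the rule for named genes, for its role beside Bckdk. Bcat1, the transaminase of the cytosol, was at the floor in both groups (8.38 in ATF4 mKO mice and 8.38 in control mice).

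The pyruvate and 2-oxoglutarate dehydrogenase complexes have the same architecture as the branched-chain complex, and the first has kinases and phosphatases of its own. Of 12 genes of this kind, 12 were measured and 0 passed (median change -0.0135). Dlat, the E2 of the pyruvate complex, had a change of 0.11 ± 0.04 (S.E.; limma, unadjusted p = 0.0216, adjusted p = 0.834), with 8 of 8 ATF4 mKO mice above the control mean and overlapping groups. Pdhx was at the floor. Ogdh, the E1 of the 2-oxoglutarate complex, changed by -0.08 and the phosphatase Pdp2 by -0.14, neither passing. Pdk4, a kinase of the pyruvate complex, varied far more between mice than Bckdk did, with 12.31 ± 0.58 in ATF4 mKO mice and 12.57 ± 0.44 in control mice (SD, n = 8 each; limma, adjusted p = 0.951). It too is named outside the rule.

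Among regulators and carriers, 8 of 9 genes were measured (Slc43a1 was not named), 1 was lower in ATF4 mKO mice and 0 were higher. The lower one was Slc7a5, which encodes the light, catalytic subunit of the plasma membrane exchanger that brings leucine and other large neutral amino acids into cells. Slc7a5 signals ran from 8.44 to 8.52 in ATF4 mKO mice and from 8.56 to 8.70 in control mice. The groups did not overlap, and the change was -0.12 ± 0.02 (S.E.; limma, adjusted p = 0.00562) at a signal that touched the floor in ATF4 mKO mice, which compresses it. Slc25a44, the mitochondrial carrier of branched-chain amino acids, changed by 0.07 (95% interval -0.02 to 0.17; limma, adjusted p = 0.894). Ppargc1a, a coactivator of mitochondrial genes, changed by 0.14 and the carrier Slc7a8 by 0.05, with adjusted p of 0.912 and 0.951 by limma. Whether the change of Slc7a5 differs from those of the breakdown genes was not tested, and the probes differ in brightness.

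For each of the 8 genes above the floor, the range of mice within either genotype was wider than the change between genotypes. All 8 had a larger SD in control mice than in ATF4 mKO mice, whereas 49.6% of the 6380 named genes above the floor did. Control mice 3 and 7 stood at the ends of this spread. Control mouse 3 also stood apart on the second principal component over probes above the floor (14.8% of variance), at -8.72, with the other 15 arrays between -3.56 and 6.19. Control mouse 3 was the highest control for 7 of the 8 genes (17.1% of the 6380 genes). Control mouse 7 was the lowest control for 4 of the 8 (18.8% of the 6380 genes). It was the lowest or next to lowest for 7 of the 8, a count whose share over all genes was not taken. Bckdhb was 10.34 in control mouse 3, which is 0.49 above the mean of the 6 controls other than mice 3 and 7. Bckdha was 11.46 in control mouse 7, lower than that mean by 0.42. The brighter Bckdk probe did not follow control mouse 3, where it was next to lowest among controls (11.43), but it was lowest in control mouse 7 (11.35). The second Bckdk probe read 11.14 in control mouse 3, equal to its control median of 11.14, and was lowest in control mouse 7 (10.71). In ATF4 mKO mice the ends were less far out, with mouse 2 the lowest for 4 of the 8 genes. The mean over the 8 genes ran from 10.63 to 10.80 in ATF4 mKO mice and from 10.50 (control mouse 7) to 10.90 (control mouse 3) in control mice.

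Without control mice 3 and 7, a choice made after seeing the data, the control SD of Bcat2 was 0.10, that of Bckdha 0.09 and that of Ivd 0.10, close to the 0.09, 0.07 and 0.11 of ATF4 mKO mice. It then exceeded the ATF4 mKO SD for 6 of 8 genes (39.4% of the 6380 genes). The change of Bckdhb was then 0.17, of Bckdha 0.03, of Ivd -0.04, of Bckdk -0.05 and of Hibadh 0.02, where the sign turned, and 0 of the genes passed. Without control mouse 3 alone, Bcat2 changed by 0.0889 and Bckdhb by 0.189 (limma, unadjusted p = 0.00979, adjusted p = 0.777). Without control mouse 7 alone, Bcat2 changed by 0.00047 and Bckdha by -0.00232. Levels of slow fiber markers in these mice were 11.97 (control mouse 3) and 12.02 (control mouse 7), at the upper end of the controls for both, and adipocyte levels were 8.71 and 8.69, at the lower end for both. The part of either in the spread was not tested.

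**Figure D3:**
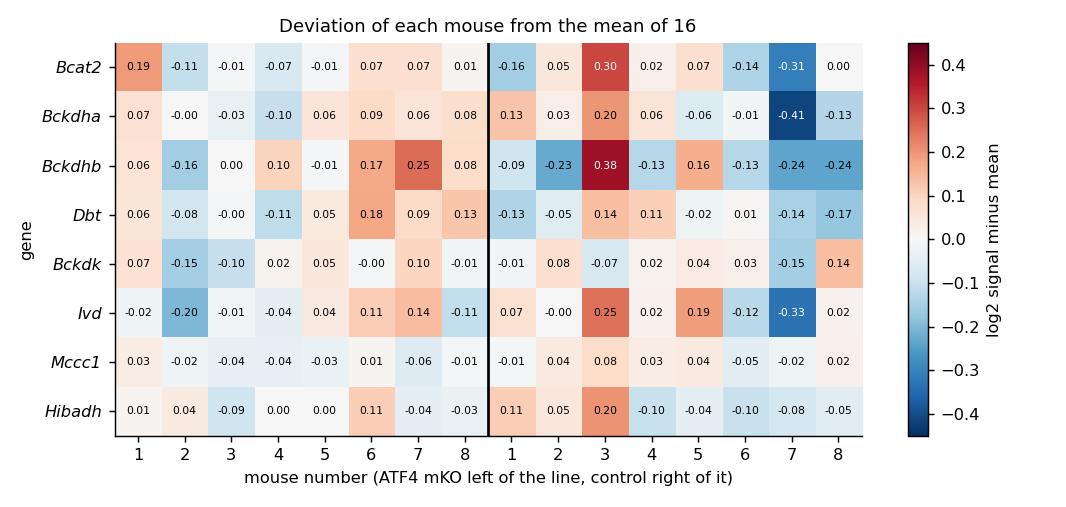
Deviation of each mouse from the mean of all 16 mice in log2 signal, for the 8 genes above the floor (rows) and the mice (columns, ATF4 mKO left of the line and control right of it), with red above and blue below the mean. Control mouse 3 is red at 7 of 8 genes, with Bckdhb at 10.34, and control mouse 7 is darkest blue at Bckdha (11.46).

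To ask whether the breakdown genes varied together, the deviations from the genotype means were correlated over the 16 mice for the 28 pairs of the 8 genes. Of the 28 pairs, 27 had a Pearson's r above 0, and the median r was 0.491. Over all pairs of the 6380 genes the median was -0.000212, and 4.81% of them reached 0.491. After Benjamini-Hochberg adjustment over the 28 pairs, 10 passed 0.05 by Pearson's r and 3 by both Pearson's r and Spearman's rho (permutation tests, 100000 resamples each). Mice were shuffled across genotypes after the genotype means were removed. All 8 genes had the larger SD in control mice, so these p values may be too small. All pairs share the same arrays, so the pairs are not independent of each other.

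Bcat2 and Mccc1 had r = 0.788 (adjusted permutation p = 0.00607) and rho = 0.741 (adjusted permutation p = 0.0398), and r was 0.704 without the 2 mice farthest from the median of Bcat2, control mice 3 and 7. Within genotypes r was 0.538 in ATF4 mKO mice and 0.879 in control mice. Bckdhb and Ivd had r = 0.773 (adjusted permutation p = 0.00607) and rho = 0.674 (adjusted permutation p = 0.0491), with r = 0.651 without the 2 farthest mice, 0.799 in ATF4 mKO mice and 0.765 in control mice. Bckdha and Dbt, subunits of the same complex, had r = 0.626 (adjusted permutation p = 0.0238) and rho = 0.712 (adjusted permutation p = 0.0398), with r = 0.542 without the 2 farthest mice, 0.884 in ATF4 mKO mice and 0.607 in control mice. In all, 6 of the 28 pairs had r above 0.5 without the 2 farthest mice, Bcat2 and Ivd (0.786 over 16 mice and 0.516 without them), Bckdhb and Dbt (0.612 and 0.519) and Bcat2 and Bckdk (0.378 and 0.549) beside the 3 above. Of the pairs that passed by Pearson's r, Bcat2 and Bckdha rested most on the farthest mice: r was 0.663 over 16 mice (adjusted permutation p = 0.0301; rho = 0.426, adjusted permutation p = 0.192) and 0.0689 without control mice 3 and 7. All values without the 2 farthest mice keep the genotype means of the 16 mice. Control mice 3 and 7 were also left out of every pair, with genotype means taken again over the other 14 mice. Of 28 pairs, 23 then stayed above 0 and the median r was 0.224, beside 0.000148 over all pairs of the 6380 genes. The E1 subunits, which form 1 enzyme, had r = 0.496 (adjusted permutation p = 0.102) and rho = 0.371 (adjusted permutation p = 0.277). Without control mice 3 and 7 their r was 0.103, and 0.14 with genotype means taken again. The lowest correlations over 16 mice were those of Bckdk: 0.0347 with Mccc1, 0.0816 with Bckdhb and -0.108 with Hibadh (adjusted permutation p = 0.9, 0.793 and 0.744; rho = 0.0735, 0.0706 and -0.0941, each with an adjusted permutation p = 0.877). The pooled value for Bckdk and Bckdhb joined 0.775 in ATF4 mKO mice and -0.26 in control mice, and r was 0.374 without the 2 farthest mice. With Bcat2, Bckdk had r = 0.66 in ATF4 mKO mice and 0.27 in control mice, and with Ivd 0.719 in ATF4 mKO mice and 0.326 in control mice. These differences between genotypes were not tested. All correlations of Bckdk are those of its brighter probe, and its second probe above the floor was not correlated.

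**Figure D4:**
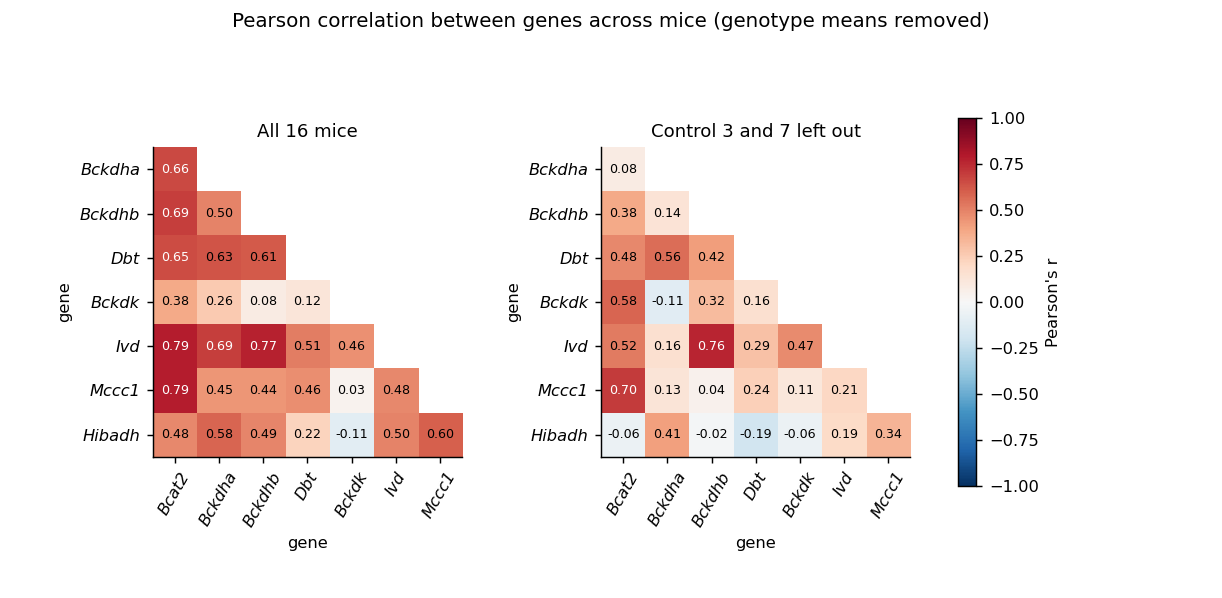
Pearson's r between the 8 genes above the floor across mice, after removal of genotype means, over all 16 mice (left) and over the 14 mice without control mice 3 and 7 (right), with red above and blue below 0. The median of the 28 pairs is 0.491 on the left and 0.224 on the right. The 4 palest cells on the left are pairs with Bckdk, read by its brighter probe.

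By the rule for named genes, the genes outside the pathway whose signals followed the mean profile of the 8 genes most closely over the 16 mice were, of 6372 genes, Lrg1 (r = 0.88), Nr1h3 (0.85), Ndufs8 (0.85), Dcaf4 (0.82) and Trmt2b (0.82). They are given as a description, since they were picked as the highest of many. Their changes in ATF4 mKO mice ran from -0.04 (Lrg1, Ndufs8 and Trmt2b) to 0.11 (Nr1h3), and none passed (limma, adjusted p from 0.90 to 0.998).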

How the data were processed

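Total RNA of quadriceps femoris was read by the authors on Illumina Mouse Ref-8 bead arrays (version 2) with BeadStudio. The authors deposited 1 table of log2 signals per probe. How these were background-corrected and normalized, and with which BeadStudio version, is not stated in the sources used. Slide positions were not known either, and slide could not serve as a block. Genotype and mouse number came from the sample labels. The platform annotation named 1 gene for 23978 of 25697 probes. It was checked through gene identifiers of GRCm38.p6, and no symbol changed.

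Each probe was fitted as ATF4 mKO against control with lmFit and eBayes (limma 3.58.1, R 4.3.3; two-sided), with Benjamini-Hochberg adjustment over all probes. Standard errors and 95% intervals are those of limma. A gene with several probes is represented by its brightest, and every probe of the 10 genes is given. The fit was tested on simulated arrays. Single values were compared by exact permutation over 12870 arrangements, and pairs of genes by 100000 permutations of the mice across genotypes (Python 3.11.15, SciPy 1.17.1).

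The genes and lists were chosen with earlier results of these data known, and 1 listed gene is not reported here. Named were Atf4, every probe of the 10 genes, the 4 smallest p of each list outside the marker lists, and the 5 genes most like the mean profile. Alternatives were quantile normalization, median centring, leaving out probes at the floor, array weights, a replicate block, each array left out, the methods' t-test, another variance prior, other thresholds and the mean of a gene's probes. A fit without control mice 3 and 7 was added after the data were seen.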

Additional observations from a re-analysis of the deposited data

Results flagged for a closer look

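The second Bckdk probe was 10.71 in control mouse 7, whereas the other 7 controls lay between 11.06 and 11.23. The gap to the nearest control was 0.666 of the range of the group, beyond Dixon's critical value of 0.526 for 8 samples. Chance gives a gap beyond the critical value in about 1 group of 20, and 28 groups were examined. The brighter Bckdk probe was also lowest among the controls in this mouse (11.35), by a smaller margin.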

How the results depend on the processing

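None of the breakdown genes passed under any alternative. Median centring could change little, as the array medians already lay between 8.378 and 8.381. Over 224 refits of the change of single genes the lowest adjusted p was 0.746, and the sign turned in 16, of which 8 were Hibadh, 3 Bckdk, 3 Ivd, 1 Bckdha and 1 Hibch. The kinase minus substrate difference was taken again only with the mean of a gene's probes and with each array left out. It stayed between -0.109 and -0.0303, with exact permutation p between 0.112 and 0.67. It was not taken without control mice 3 and 7 together. Over all probes, 35 calls became 733 at an unadjusted p of 0.025 by the methods' t-test 28 to 37 with 1 array left out, and 25 when control mice 3 and 7 were both left out. The replicate block on mouse number called 16 probes. Same-numbered mice correlated between -0.232 and 0.247 in their deviations from the group means, with 2 of 8 pairs above 0.1. Of 16 arrays, 2 correlated best with their own number. These values do not show pairing by number, and they cannot settle it, since a small shared effect could go unseen. The floor leaves Hibch and 2 Dbt probes without room to fall, and Mccc1 with little.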
